A study of Homo sapiens with 9 samples.

Results

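The genes described here are 9 genes of major histocompatibility complex (MHC) class I antigen presentation: PSMB8, PSMB9, TAP1, TAP2, TAPBP, B2M, HLA-E, HLA-F and NLRC5. They were taken by symbol, together with every probe set that the platform annotation ties to 1 of these symbols and to no other, which gave 9 of the 19775 genes measured and 20 probe sets. All 9 genes and all 20 probe sets passed the filter on dim signals. Expression was measured on Affymetrix U133 Plus 2.0 arrays in LiSa-2, an established human liposarcoma cell line grown on plates in medium with bovine serum. Cells received HAase, a hyaluronidase from bovine testis that cleaves hyaluronan, at 400 µg/mL for 24 h (3 arrays) or for 6 h (3 arrays), and control cells received phosphate-buffered saline (PBS) for 24 h (3 arrays). No genotype was altered in any group, and all samples are of this 1 line. The 9 arrays include no PBS group at 6 h, which would match the earlier time. Differences between 6 h of HAase and PBS therefore cannot be told apart from differences in time since the start of treatment.

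Class I molecules show peptides from the cell's own proteins to cytotoxic T cells and natural killer cells. The proteasome cuts the proteins, and in the immunoproteasome the subunits PSMB8, PSMB9 and PSMB10 stand in for the constitutive catalytic subunits PSMB5, PSMB6 and PSMB7. TAP1 and TAP2 form the transporter that carries peptides into the endoplasmic reticulum, where tapasin, the product of TAPBP, holds empty class I molecules at the transporter. A class I molecule is a heavy chain, such as HLA-E or HLA-F, bound to the invariant light chain B2M, and NLRC5 is the transactivator of the class I genes. Interferons are known to raise most of these genes together.

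The arrays of a group resembled each other more than those of other groups, with correlations across genes of at least 0.9891 within groups and at most 0.9736 between them. Values are linear signals scaled by the authors, with array medians between 55.83 and 61.31, and precision is limited by having 3 arrays a group. Of the 8 adipocyte markers checked for this tumour of fat lineage, 7 exceeded the bacterial control probe sets on all arrays at 24 h of HAase and 8 did so at 6 h and in PBS. Their summed signal was 29138 to 33770 after 24 h of HAase, 44999 to 47088 after 6 h and 58023 to 59864 in PBS. Of those 8 markers, 8 fell at 24 h and 6 fell at 6 h, beside 22.8% and 27.4% of all tested genes. Markers of other cell types were dim: the 10 leukocyte genes on the array summed to 425 to 480 at 24 h, 324 to 348 at 6 h and 271 to 345 in PBS, and the pan-leukocyte gene PTPRC and the epithelial genes EPCAM and CDH1 did not exceed those control probe sets on any array. In contrast, CSF1R and ITGAM of the leukocyte list, KRT8 of the epithelial list and PECAM1 of the endothelial list exceeded them on all 9 arrays. CSF1R rose by 1.04 ± 0.14 on the log2 scale at 24 h (limma, adjusted p = 0.000559) and by 0.44 ± 0.14 at 6 h (0.0318), the 6 h call being lost in 7 of 15 alternatives, among them the removal of any 6 h array or of PBS replicate 1 or 3. PECAM1 rose by 0.53 ± 0.07 at 24 h (adjusted p = 0.000496) and by 0.40 ± 0.07 at 6 h (0.00242), while ITGAM and KRT8 did not pass. The sums were 192 to 260, 192 to 289 and 170 to 248 for 5 epithelial genes, and 420 to 442, 374 to 427 and 277 to 342 for 5 endothelial genes, in the same order of groups. The part of these marker shifts in the results below was not tested. In bulk RNA, fewer cells that express a gene and less RNA per cell cannot be told apart.

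After 24 h of HAase, the members did not move as one group. PSMB9, PSMB8 and HLA-E fell, TAP2 and TAPBP rose, and TAP1, B2M, HLA-F and NLRC5 did not pass the test at their brightest probe set. The 2 genes that rose and 3 that fell, of 9, stand beside 17.5% of all 13842 tested genes called higher and 22.8% called lower (limma, Benjamini-Hochberg adjusted p under 0.05), so counts of this size were common among all genes. The tally depends on the probe sets: with the mean of all probe sets of a gene, 0 members rose and 5 fell at 24 h, and 0 rose and 2 fell at 6 h. The median log2 fold change over the members was -0.13, against -0.03 over all tested genes. After 6 h, TAP2 and TAPBP rose and PSMB8 and PSMB9 fell, beside 15.0% of all genes called higher and 27.4% called lower, with medians of -0.02 over the members and -0.08 over all genes. Both comparisons share the 3 PBS arrays. All fold changes are of log2(signal + 16), with standard errors from the limma model.

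**Figure D1:**
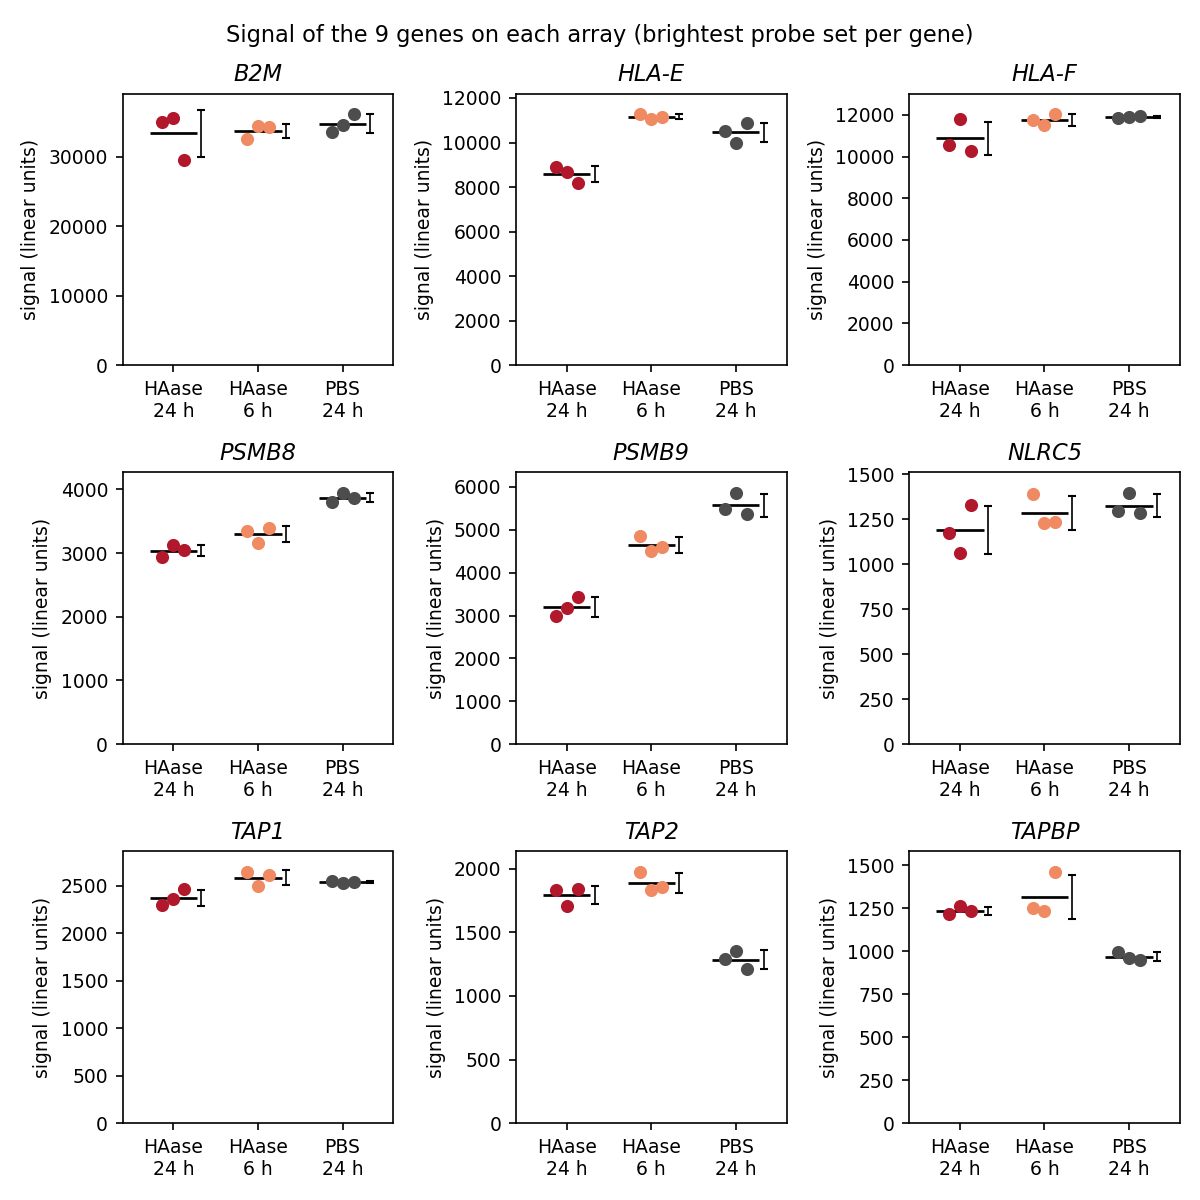
Linear signal of each of the 9 genes (vertical axes start at 0) on each array of the HAase 24 h, HAase 6 h and PBS groups; points are arrays, horizontal lines are means and bars are 1 SD (n = 3 arrays). PSMB9 lies between 2985 and 3442 at 24 h of HAase, below all 6 h and PBS arrays, while all HAase arrays of TAP2 and TAPBP lie above all PBS arrays.

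The genes PSMB9, TAP1, PSMB8 and TAP2 neighbour each other in the class II region of the MHC, and TAPBP lies on the same chromosome. Their promoters are shown because these neighbours did not all change alike: TAP2 and TAPBP rose, PSMB8 and PSMB9 fell, and TAP1 did not pass the test. PSMB9 and TAP1 are read divergently from 1 shared stretch. The sequences are those of RefSeq on GRCh38.p14, from 250 bases before to 50 bases after the gene start, and 7 of the 9 members were in that table. The PSMB9 window is chr6:32853942-32854241 (plus strand), that of TAP1 is chr6:32853655-32853954 (minus strand), and they share 13 bases. The PSMB8 window is chr6:32843998-32844297, that of TAP2 is chr6:32838690-32838989 and that of TAPBP is chr6:33314029-33314328, all on the minus strand. Capitals mark the core of the interferon-stimulated response element, searched as GAAANNGAAA on both strands, and the NF-kappaB motif, searched as GGGANNTTCC on both strands.
PSMB9 promoter: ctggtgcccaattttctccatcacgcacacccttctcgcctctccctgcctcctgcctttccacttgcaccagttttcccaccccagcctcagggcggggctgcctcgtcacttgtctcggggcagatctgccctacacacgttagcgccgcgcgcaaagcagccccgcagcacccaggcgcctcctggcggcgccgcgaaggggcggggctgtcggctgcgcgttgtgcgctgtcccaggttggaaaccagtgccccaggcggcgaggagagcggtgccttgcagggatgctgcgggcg
TAP1 promoter: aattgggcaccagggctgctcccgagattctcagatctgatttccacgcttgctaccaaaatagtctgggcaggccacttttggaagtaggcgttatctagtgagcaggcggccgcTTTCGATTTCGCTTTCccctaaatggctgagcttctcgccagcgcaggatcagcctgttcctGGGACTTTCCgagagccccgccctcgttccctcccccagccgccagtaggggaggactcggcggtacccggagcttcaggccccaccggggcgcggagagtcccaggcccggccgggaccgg
PSMB8 promoter: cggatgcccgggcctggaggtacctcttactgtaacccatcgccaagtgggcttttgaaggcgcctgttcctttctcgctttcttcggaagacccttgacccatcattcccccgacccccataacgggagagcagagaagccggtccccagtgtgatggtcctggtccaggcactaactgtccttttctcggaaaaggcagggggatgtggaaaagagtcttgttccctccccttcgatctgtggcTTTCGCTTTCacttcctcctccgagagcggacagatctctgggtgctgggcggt
TAP2 promoter: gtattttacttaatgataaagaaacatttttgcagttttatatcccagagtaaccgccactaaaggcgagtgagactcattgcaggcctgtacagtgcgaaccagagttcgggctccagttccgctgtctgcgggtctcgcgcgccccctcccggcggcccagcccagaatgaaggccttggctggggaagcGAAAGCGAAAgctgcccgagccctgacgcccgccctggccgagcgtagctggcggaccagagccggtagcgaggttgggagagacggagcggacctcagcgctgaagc
TAPBP promoter: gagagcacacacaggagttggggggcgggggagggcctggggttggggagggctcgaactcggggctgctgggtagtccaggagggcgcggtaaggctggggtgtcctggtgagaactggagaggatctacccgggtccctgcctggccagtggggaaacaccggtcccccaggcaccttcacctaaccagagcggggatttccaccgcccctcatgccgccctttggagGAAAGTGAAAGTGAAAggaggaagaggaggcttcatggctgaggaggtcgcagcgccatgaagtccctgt
The TAP1 window held 2 overlapping interferon-response cores and 1 NF-kappaB motif, while the PSMB9 window held neither. The windows share only 13 bases, and the matches of the TAP1 window lie between the starts of both genes but beyond the PSMB9 window. The contrast thus depends on where the windows were cut. The TAP2 and PSMB8 windows shown held 1 core each, that of PSMB8 close to the gene start, and the TAPBP window held 2 overlapping cores. The windows of HLA-F, with 1 core, and of B2M, with 2 overlapping cores and 1 NF-kappaB motif, are not printed, nor are a further window of TAP1 and one of PSMB8 that held neither motif. Across all 35116 promoters of the same length, 3.57% held the interferon-response core and 1.61% the NF-kappaB motif. A match of these letters is a description of the sequence and was not tied to the measured changes: a core stood at genes that rose (TAP2, TAPBP), at one that fell (PSMB8) and at genes that did not pass the test (TAP1, B2M).

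PSMB9, an inducible catalytic subunit of the immunoproteasome, changed most among the members at 24 h. Its signal was 2985, 3179.6 and 3442 after 24 h of HAase, 4858, 4496 and 4594.5 after 6 h, and 5480.4, 5865 and 5360.5 in PBS. The 3 groups did not overlap, and the 24 h arrays were the lowest and the PBS arrays the highest. The fall at 24 h was -0.80 ± 0.07 on the log2 scale (adjusted p = 5.39e-05), a signal 1.74-fold lower than in PBS. The fall at 6 h was smaller, -0.26 ± 0.07 (adjusted p = 0.0184), and 24 h lay -0.54 ± 0.07 below 6 h (adjusted p = 0.000796). The fall at 6 h was no longer called when the arrays were set to equal medians (adjusted p = 0.0665) or when PBS replicate 2 (0.0645), 6 h HAase replicate 2 (0.0607) or 6 h HAase replicate 3 (0.0537) was left out.

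PSMB8, the subunit that replaces PSMB5, fell at both times and by less than PSMB9 at 24 h. Its signal was 2946, 3121 and 3048 after 24 h of HAase, 3344, 3153 and 3388 after 6 h, and 3800.05, 3949 and 3863 in PBS. Every HAase array lay below every PBS array, and the 24 h arrays also lay below the 6 h arrays. The log2 fold change was -0.35 ± 0.05 at 24 h (adjusted p = 0.000999) and -0.23 ± 0.05 at 6 h (adjusted p = 0.00775). The further difference of -0.12 ± 0.05 between 24 h and 6 h did not pass (adjusted p = 0.125). With arrays set to equal medians the 6 h fall was not called (adjusted p = 0.0574).

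The other inducible subunit, PSMB10, which is not one of the 9 genes, was lower at 24 h than in both other groups. Its signal averaged 1035 ± 95.01 after 24 h of HAase, 1413 ± 60.6 after 6 h and 1479 ± 41.8 in PBS (SD, n = 3 each). It fell at 24 h relative to PBS (-0.51 ± 0.07, adjusted p = 0.000944) and relative to 6 h (-0.45 ± 0.07, adjusted p = 0.00278), while at 6 h its difference from PBS was -0.07 ± 0.07 (adjusted p = 0.524). The constitutive subunits did not move together at 24 h: PSMB7 rose by 0.23 ± 0.06 (adjusted p = 0.0153), PSMB5 differed by 0.09 ± 0.05 (adjusted p = 0.244) and PSMB6 fell by 0.18 ± 0.06 (adjusted p = 0.0461). The PSMB6 call was lost in 11 of 16 alternatives, including the removal of any 1 array of the compared groups, and the PSMB7 call without PBS replicate 2 (adjusted p = 0.0549) or with the mean of its probe sets (0.552). None of the 3 passed at 6 h (limma; 0 at an unadjusted p under 0.05). Of 10 other tested subunits of the proteasome core, 0 passed in either comparison with PBS (limma), with 1 higher at 24 h and 0 at 6 h at an unadjusted p under 0.05. Of all genes, 17.5% were called higher and 22.8% lower at 24 h, and 15.0% and 27.4% at 6 h.

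The ratio of each inducible subunit to its constitutive counterpart, taken within each array, fell below all PBS values on all HAase arrays. The log2 ratio changed by -0.61 at 24 h and -0.20 at 6 h for PSMB9 over PSMB6, by -0.44 and -0.23 for PSMB8 over PSMB5, and by -0.74 and -0.12 for PSMB10 over PSMB7. The exact two-sided permutation p was 0.1 for each, the smallest that 3 arrays against 3 can give, and 0.117 after Benjamini-Hochberg adjustment over the 21 tests of 7 gene pairs. These are shifts of ratios between probe sets and say nothing of which subunit was more abundant.

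**Figure D2:**
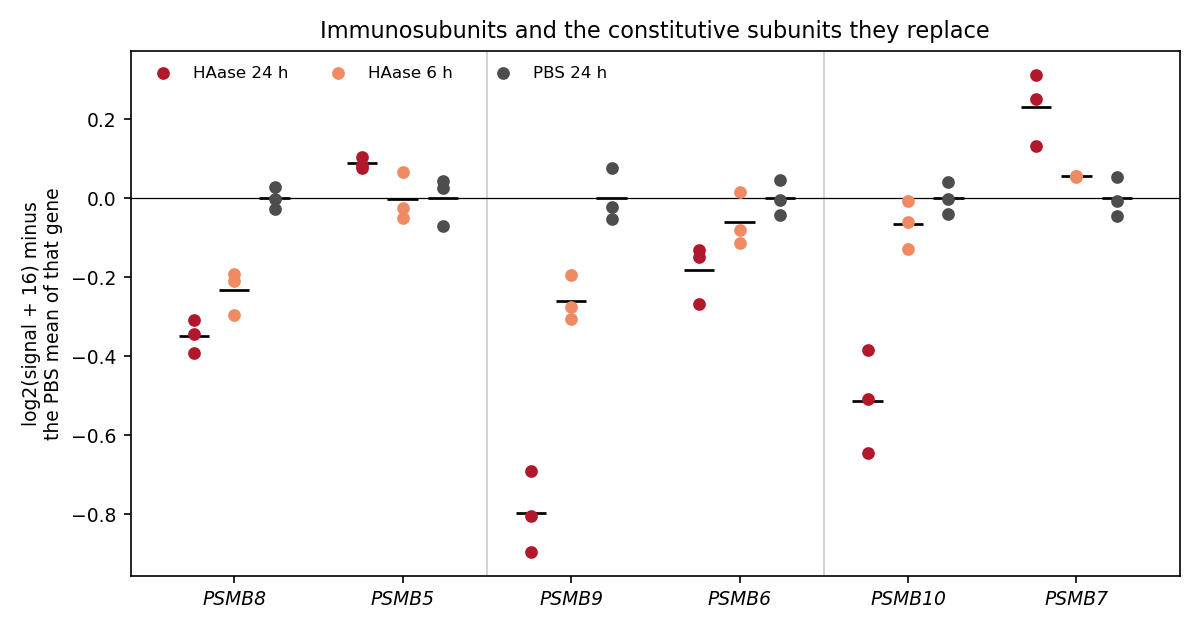
Log2(signal + 16) of PSMB8, PSMB9 and PSMB10 and, beside each, the constitutive subunit it replaces, minus the PBS mean of that gene (vertical axis), on each HAase 24 h, HAase 6 h and PBS array; lines are group means of 3 arrays. At 24 h the means lie at -0.35, -0.80 and -0.51 for the inducible subunits and at 0.09, -0.18 and 0.23 for PSMB5, PSMB6 and PSMB7.

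The partner chains of the peptide transporter behaved differently. TAP2 rose at both times at its brightest probe set, with signals of 1830.3, 1710.3 and 1844 after 24 h of HAase, 1978, 1832 and 1857 after 6 h, and 1290.2, 1356 and 1212 in PBS. All 6 HAase arrays lay above the 3 PBS arrays, and the HAase groups overlapped. The log2 fold change was 0.48 ± 0.06 at 24 h (adjusted p = 0.000567) and 0.55 ± 0.06 at 6 h (adjusted p = 0.000293), and 24 h differed from 6 h by -0.07 ± 0.06 (adjusted p = 0.428).

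TAP1, which pairs with TAP2, had signals of 2295, 2359.95 and 2461 after 24 h of HAase, 2647, 2493 and 2613 after 6 h, and 2550.04, 2529 and 2539 in PBS. The 24 h arrays all lay just below the PBS arrays, and the 6 h arrays overlapped them. The log2 difference was -0.10 ± 0.05 at 24 h (adjusted p = 0.158), with a 95% interval of -0.21 to 0.02, and 0.02 ± 0.05 at 6 h (adjusted p = 0.726), with an interval of -0.09 to 0.14. Within arrays, the log2 ratio of TAP2 to TAP1 was higher than in PBS by 0.57 at 24 h and 0.52 at 6 h, and that of PSMB9 to its divergent neighbour TAP1 was lower by 0.70 and 0.28, with no overlap of HAase and PBS arrays (exact permutation p = 0.1 for each).

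TAPBP, which encodes tapasin, rose at both times, like TAP2. Its signal was 1215, 1261 and 1233 after 24 h of HAase, 1254, 1234 and 1463 after 6 h, and 997, 959 and 949 in PBS. All HAase arrays lay above all PBS arrays. It rose by 0.35 ± 0.07 at 24 h (adjusted p = 0.00564) and by 0.43 ± 0.07 at 6 h (adjusted p = 0.00192), with a difference of -0.09 ± 0.07 between the times (adjusted p = 0.412).

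**Figure D3:**
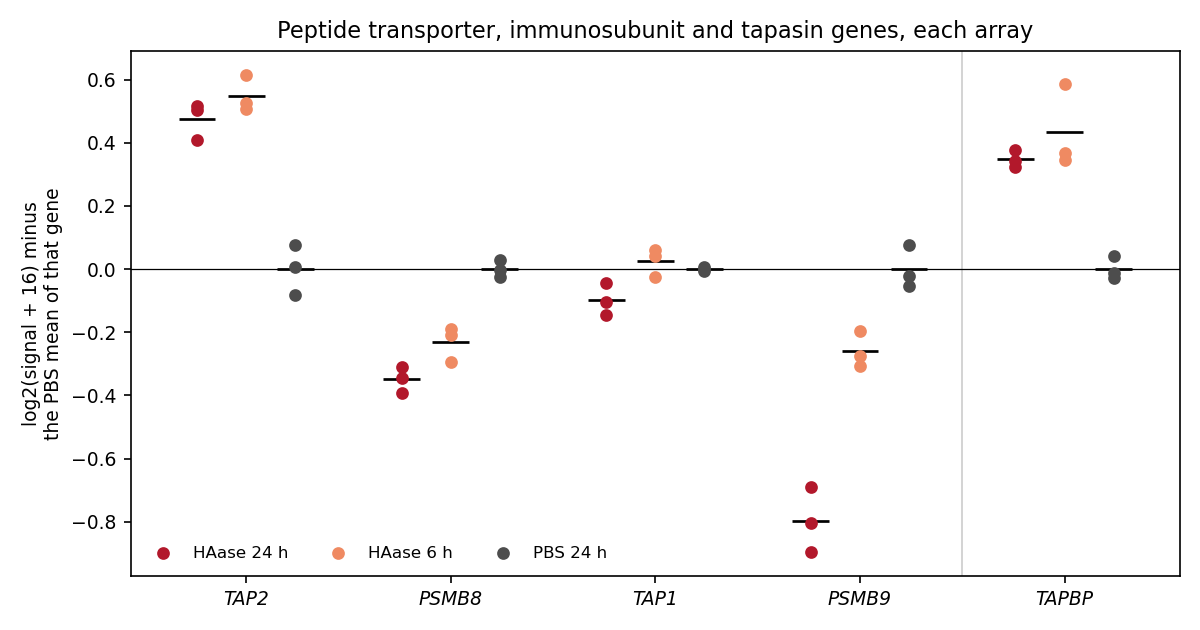
Log2(signal + 16) of TAP2, PSMB8, TAP1 and PSMB9, which neighbour each other, and of TAPBP, minus the PBS mean of that gene (vertical axis), on each HAase 24 h, HAase 6 h and PBS array; lines are group means of 3 arrays. TAP2 and TAPBP lie above 0 on all HAase arrays, PSMB8 and PSMB9 below 0 on all of them, and TAP1 has means of -0.10 at 24 h and 0.02 at 6 h.

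The dimmer probe sets of TAP2 and TAPBP carried less of this rise. A second TAP2 probe set, 204769_s_at, had signals of 542, 527 and 555 at 24 h, 715, 635 and 699.6 at 6 h, and 493, 413 and 605 in PBS. Its 6 h arrays lay above all PBS arrays (0.44 ± 0.13, adjusted p = 0.0341 in the fit over all probe sets, lost in 7 of 15 alternatives, among them the removal of any 6 h array or of PBS replicate 1 or 2), and its 24 h arrays lay within the PBS range (0.12 ± 0.13, adjusted p = 0.55). The remaining 2 probe sets of TAP2 and 2 of TAPBP had mean signals of 22.3 to 153 at 24 h, 26.1 to 151 at 6 h and 33.3 to 135 in PBS, and none passed in either comparison with PBS. When each gene was given the mean of all its probe sets, neither rise was called: the log2 fold changes were 0.06 for TAP2 (adjusted p = 0.807) and 0.25 for TAPBP (0.351) at 24 h, and 0.19 (0.391) and 0.19 (0.488) at 6 h.

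Over all 20 probe sets, 2 rose and 7 fell at 24 h, beside 13.2% of the 28764 tested probe sets called higher and 17.1% called lower. At 6 h, 3 rose and 2 fell, beside 11.9% and 18.4%. Leaving out any 1 PBS or 6 h array left 2 to 3 of these 5 calls, and the 6 h fall of PSMB9 204279_at was lost without each of them. The probe sets of a gene share its transcripts and are not independent.

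**Figure D4:**
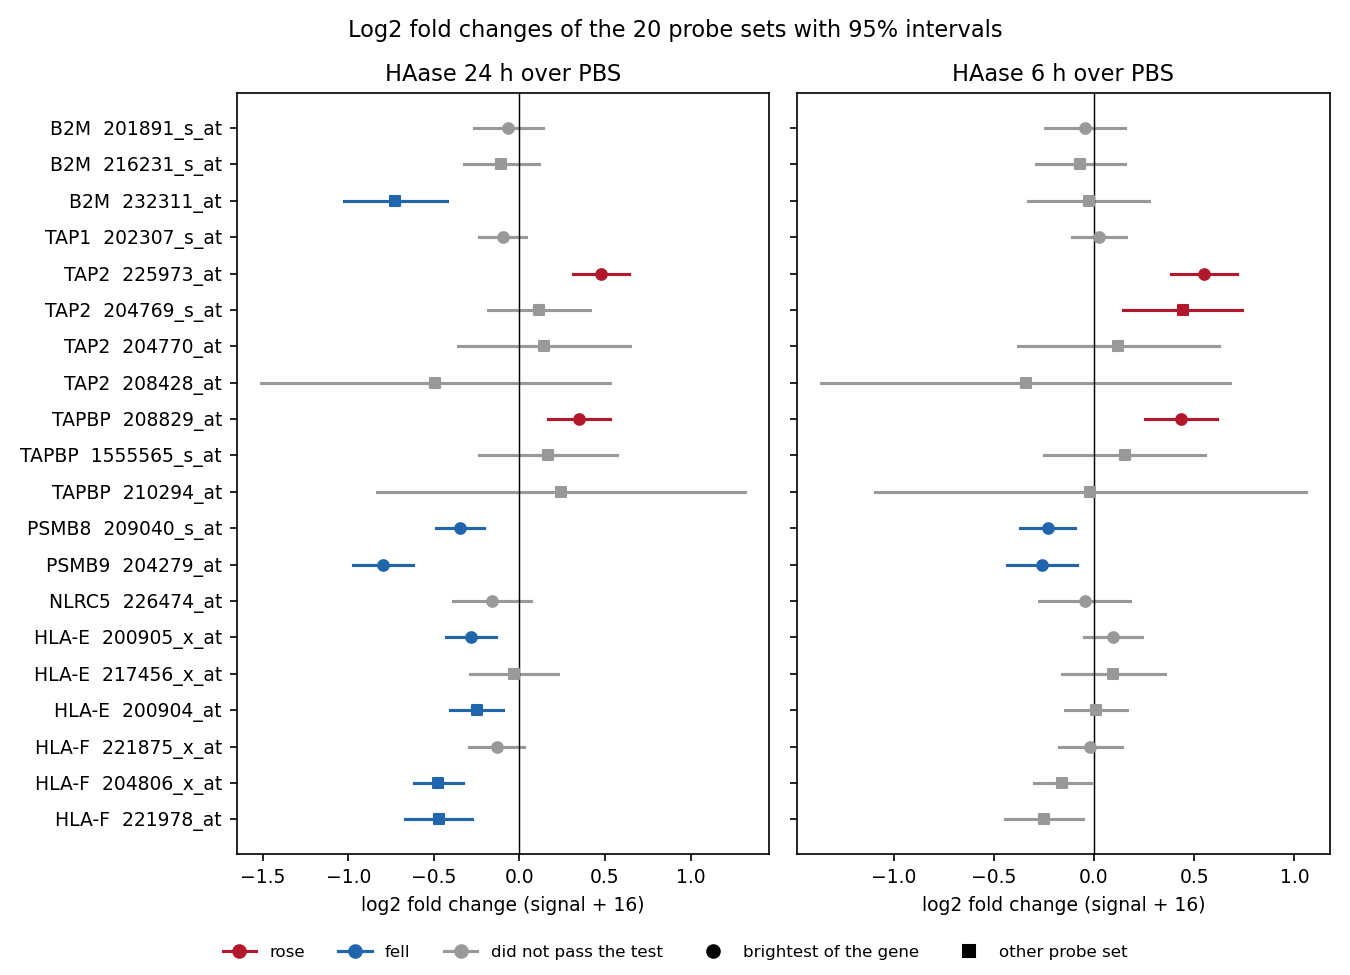
Log2 fold change of each of the 20 probe sets, HAase 24 h over PBS (left) and HAase 6 h over PBS (right), with 95% intervals from the limma fit over all probe sets; red rose, blue fell, grey did not pass, circles are the brightest probe set of a gene. At 24 h all 7 blue probe sets belong to B2M, PSMB8, PSMB9, HLA-E and HLA-F, and the 2 red ones to TAP2 and TAPBP.

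B2M, the light chain of every class I molecule, was among the brightest transcripts and did not pass the test in any comparison at its brightest probe set. Its signal was 35049, 35551 and 29465 after 24 h of HAase, 32471, 34385 and 34234 after 6 h, and 33565, 34527 and 36187 in PBS. The groups overlapped, and the lowest value was that of 24 h replicate 3. The log2 difference from PBS was -0.06 ± 0.08 at 24 h (adjusted p = 0.576; 95% interval -0.25 to 0.12) and -0.04 ± 0.08 at 6 h (adjusted p = 0.696; interval -0.23 to 0.14). Without 24 h replicate 3 the 24 h difference was 0.02 (adjusted p = 0.799), so that array set its sign. The B2M signal was 73% to 80.5% of the brightest probe set of its array.

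A dim B2M probe set, 232311_at, differed from the bright ones in the size of its change at 24 h. Its signal was 125, 131 and 125 after 24 h of HAase, 233, 202 and 213 after 6 h, and 252, 174 and 243 in PBS. All 24 h arrays lay below all others, and the 6 h and PBS arrays overlapped. It fell at 24 h by 0.72 ± 0.13 (adjusted p = 0.00424 over all probe sets) and differed by -0.03 ± 0.13 at 6 h (adjusted p = 0.905). The other bright probe set, 216231_s_at, differed by -0.10 ± 0.10 at 24 h (adjusted p = 0.467). With the mean of all 3 probe sets, which gives the dim one equal weight, B2M was called lower at 24 h (-0.30, adjusted p = 0.0207).

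HLA-E, a non-classical class I molecule recognised by inhibitory receptors of natural killer cells, was lower at 24 h than in both other groups. Its brightest probe set had signals of 8890.1, 8680.4 and 8182 after 24 h of HAase, 11298, 11048.5 and 11149 after 6 h, and 10507, 9981 and 10865 in PBS. The 24 h arrays lay below all others, and the 6 h arrays lay above all PBS arrays. HLA-E fell by 0.28 ± 0.05 at 24 h (adjusted p = 0.00418), differed by 0.10 ± 0.05 at 6 h (adjusted p = 0.202), and lay -0.38 ± 0.05 lower at 24 h than at 6 h (adjusted p = 0.00139).

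Among the other HLA-E probe sets, 200904_at had signals of 2675, 2753 and 2647 after 24 h of HAase, 3433, 3097 and 3148 after 6 h, and 3275, 3288 and 3051 in PBS. It likewise fell at 24 h (-0.25 ± 0.07, adjusted p = 0.025 over all probe sets) and was low against 6 h (-0.26 ± 0.07, adjusted p = 0.029), but these calls were lost in 6 and 9 of 15 alternatives. The first was lost without 24 h replicate 1 or 3 (adjusted p = 0.0653 and 0.0659) or PBS replicate 1 or 2 (0.079 and 0.0783), and the second without any 24 h array or without 6 h replicate 1 or 3 (up to 0.0892). The probe set 217456_x_at differed by -0.03 ± 0.11 at 24 h (adjusted p = 0.858), with arrays that overlapped. Probe sets with the suffix x may also bind related class I transcripts, so values of HLA-E 200905_x_at and 217456_x_at and of both x probe sets of HLA-F are uncertain in that respect.

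HLA-F, a non-classical class I molecule that can reach the cell surface without peptide, gave different answers at its 3 probe sets. The brightest, 221875_x_at, had signals of 10557, 11776 and 10277 after 24 h of HAase, 11749, 11488 and 12057 after 6 h, and 11857, 11894 and 11959.8 in PBS. The 24 h arrays lay below the PBS arrays, though one of them by little, and the difference of -0.13 ± 0.06 did not pass (adjusted p = 0.123). At 6 h it was -0.02 ± 0.06 (adjusted p = 0.847).

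The probe set 204806_x_at was more clearly ordered, with 6426, 6976 and 6922 at 24 h, 8444, 8674 and 8199 at 6 h, and 9642, 9325 and 9272 in PBS. Its groups did not overlap, and it fell at 24 h by 0.47 ± 0.06 relative to PBS (adjusted p = 0.000777) and by 0.32 ± 0.06 relative to 6 h (adjusted p = 0.00885). The dim 221978_at, with 232, 264 and 276 at 24 h, 307, 312 and 286 at 6 h, and 368, 380.2 and 337 in PBS, fell at 24 h by 0.47 ± 0.08 (adjusted p = 0.00403). At 6 h these probe sets differed by -0.16 (adjusted p = 0.0943) and -0.25 (adjusted p = 0.0589). HLA-F as a gene was called lower at 24 h with the mean of its probe sets (-0.36, adjusted p = 0.00233), with quantile normalization (0.0235), with the trended robust variance (0.0417) and without 24 h replicate 2 (0.027).

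NLRC5, which drives transcription of class I genes through their conserved promoter boxes, was measured by 1 probe set. Its signal was 1174, 1063 and 1329.6 after 24 h of HAase, 1392, 1229 and 1233 after 6 h, and 1297, 1398 and 1283 in PBS. The 3 groups overlapped. The log2 difference from PBS was -0.16 ± 0.09 at 24 h (adjusted p = 0.213; 95% interval -0.37 to 0.05) and -0.05 ± 0.09 at 6 h (adjusted p = 0.722; interval -0.26 to 0.17).

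Between the HAase times, 2 of the 9 genes fell from 6 h to 24 h and 0 rose (limma; 0 also at an unadjusted p under 0.05), beside 13.3% of all genes called lower and 19.7% called higher at 24 h. The median was -0.12 over the members and 0.05 over all genes. The 2 were PSMB9 and HLA-E. Over probe sets, 5 fell and 0 rose, beside 10.1% called lower and 12.0% called higher.

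The classical heavy chains differed little. HLA-B and HLA-C, named here after their values were seen, differed from PBS by -0.01 ± 0.09 and 0.00 ± 0.08 at 24 h and by 0.07 ± 0.09 and -0.03 ± 0.08 at 6 h. In the list of classical heavy chains and other molecules that bind B2M, 3 of 7 tested genes fell at 24 h and 0 rose. None was higher at an unadjusted p under 0.05 either (limma). At 6 h, 2 fell and 1 rose. Of all genes, 22.8% were called lower and 17.5% higher at 24 h, and 27.4% and 15.0% at 6 h. The counts at 6 h were near those shares. MR1, which presents vitamin metabolites to T cells, fell by 0.90 ± 0.11 at 24 h (adjusted p = 0.000424) and by 0.69 ± 0.11 at 6 h. HFE, a regulator of iron uptake, fell by 0.54 ± 0.08 at 24 h and by 0.57 ± 0.08 at 6 h, and with the mean of its probe sets the 24 h value was -0.16 (adjusted p = 0.168). FCGRT, the neonatal Fc receptor, was dim and at 24 h not above the bacterial controls on any array, so that its signal was at least 1.68-fold lower than in PBS (mean signals of 18.9 at 24 h and 85.8 in PBS, adjusted p = 0.0125). CD1D, which presents lipids, was above those controls on all 6 h arrays and on no PBS array, at least 1.42-fold higher at 6 h (mean signals of 76.3 and 24.9, adjusted p = 0.000731).

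Among 9 tested partners of the loading complex and peptide-trimming enzymes, 2 fell at 24 h, 1 fell at 6 h and 0 rose. None was higher at an unadjusted p under 0.05 either (limma). Of all genes, 22.8% were called lower and 17.5% higher at 24 h, and 27.4% and 15.0% at 6 h. The counts of falls were near or under those shares. The trimming enzyme ERAP2 fell by 0.61 ± 0.09 at 24 h (adjusted p = 0.000972) and by 0.39 ± 0.09 at 6 h (adjusted p = 0.00861, and 0.125 with the mean of its probe sets). Its relative ERAP1 fell by 0.21 ± 0.07 at 24 h (adjusted p = 0.0366), a call lost in 10 of 16 alternatives, among them the removal of any PBS array or of 24 h replicate 1 or 2. The chaperone CALR differed by -0.23 ± 0.10 at 24 h (adjusted p = 0.089). Among 5 tested genes of the list with PSMB10 and the proteasome activators, 2 fell and 0 rose at 24 h, beside those 22.8% and 17.5%. At an unadjusted p under 0.05, 1 was higher (limma). Besides PSMB10, PSME3 fell (-0.27 ± 0.08, adjusted p = 0.0343). The PSME3 call was lost in 9 of 16 alternatives, among them the removal of any PBS array or of 24 h replicate 1 or 3. At 6 h PSME4 rose by 0.26 ± 0.06 (adjusted p = 0.0127, and 0.126 with the mean of its probe sets) and PSME1 fell by 0.14 ± 0.04 (adjusted p = 0.032, lost in 11 of 16 alternatives, among them the removal of any 1 array of the compared groups).

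The transcription factors of class I genes moved in both directions. Of 12 tested, 2 rose and 4 fell at 24 h, beside 17.5% and 22.8% of all genes, and 5 rose and 5 fell at 6 h, beside 15.0% and 27.4%, with list medians of -0.19 and -0.10. IRF1, an interferon-induced activator, had signals of 771, 818 and 863 at 24 h, 1029, 1150.3 and 1060.03 at 6 h, and 488, 536 and 447 in PBS. It was high on every HAase array and highest at 6 h, a rise of 0.72 ± 0.08 at 24 h (adjusted p = 0.000242) and of 1.12 ± 0.08 at 6 h (adjusted p = 2.9e-05). RELA, a subunit of NF-kappaB, rose by 0.45 ± 0.08 at 24 h, and NFKB1 rose by 1.00 ± 0.10 at 6 h (adjusted p = 0.000159). CIITA, the class II counterpart of NLRC5, was dim and rose at 6 h (1.10 ± 0.31, adjusted p = 0.0217), with 3 of 3 arrays above the bacterial controls at 6 h and 1 of 3 in PBS. That call was lost without 6 h replicate 1 (adjusted p = 0.0579), 6 h replicate 2 (0.0708) or PBS replicate 2 (0.0566).

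RFXAP and RFXANK, subunits of the RFX complex, which binds the class I promoter boxes together with NLRC5, fell. RFXAP had signals of 659.8, 608 and 717 at 24 h, 445, 482 and 431 at 6 h, and 826, 862 and 787 in PBS. Its groups did not overlap and 6 h was the lowest, and it fell by 0.31 ± 0.08 at 24 h (adjusted p = 0.0123, and 0.216 with the mean of its probe sets) and fell by 0.84 ± 0.08 at 6 h (adjusted p = 8.72e-05). RFXANK fell by 0.47 ± 0.11 at 24 h (adjusted p = 0.0107).

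Of 13 tested interferon receptors and signalling genes, 3 rose and 3 fell at 24 h, and 6 rose and 1 fell at 6 h, beside the 17.5% higher and 22.8% lower of all genes at 24 h and the 15.0% and 27.4% at 6 h. The list had medians of -0.04 at 24 h and 0.26 at 6 h. SOCS3, a feedback inhibitor of cytokine signalling, rose by 2.70 ± 0.10 at 24 h (adjusted p = 4.3e-07) and by 3.20 ± 0.10 at 6 h (adjusted p = 2.51e-07). IFNGR2, a chain of the interferon-gamma receptor, rose by 1.50 ± 0.08 and 2.26 ± 0.08. STAT3 fell by 0.84 ± 0.06 at 24 h and rose by 0.57 ± 0.06 at 6 h, and USP18, a brake on type I interferon signalling, fell at 24 h (-1.87 ± 0.33, adjusted p = 0.00284, above the bacterial controls on 2 of 3 arrays at 24 h).

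Of 28 tested interferon-stimulated genes outside antigen presentation, 18 fell and 6 rose at 24 h, beside 22.8% of all genes called lower and 17.5% called higher. At 6 h, 9 fell and 6 rose, near the shares of 27.4% and 15.0% of all genes. The list had medians of -0.92 at 24 h and -0.11 at 6 h against the -0.03 and -0.08 of all genes. TRIM22, an antiviral ubiquitin ligase, averaged 371 at 24 h of HAase, 1116 at 6 h and 1934 in PBS, and fell by 2.33 ± 0.11 at 24 h (adjusted p = 1.46e-06). IFITM1, which blocks viral entry, fell by 2.25 ± 0.14 at 24 h. MX1, an antiviral GTPase, fell by 2.79 ± 0.48, with 1 of 3 arrays at 24 h above the bacterial controls. RSAD2, another antiviral gene, rose at 24 h at least 3.80-fold (mean signals of 233.6 at 24 h and 29.96 in PBS, where no array was above those controls; adjusted p = 7.53e-05).

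At 6 h the largest changes of that list were of both signs. OASL rose by 1.84 ± 0.10 and GBP1, an interferon-gamma target, by 1.06 ± 0.09, while IFIT1 fell by 1.62 ± 0.21 and IFI44L by 0.87 ± 0.18. Among the members, PSMB8 (-0.35, 95% interval -0.47 to -0.23) fell less at 24 h than the median of -0.92 of this list. The interval of PSMB9 (-0.80, 95% interval -0.96 to -0.64) included that median, and TAP2 and TAPBP had the opposite sign.

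**Figure D5:**
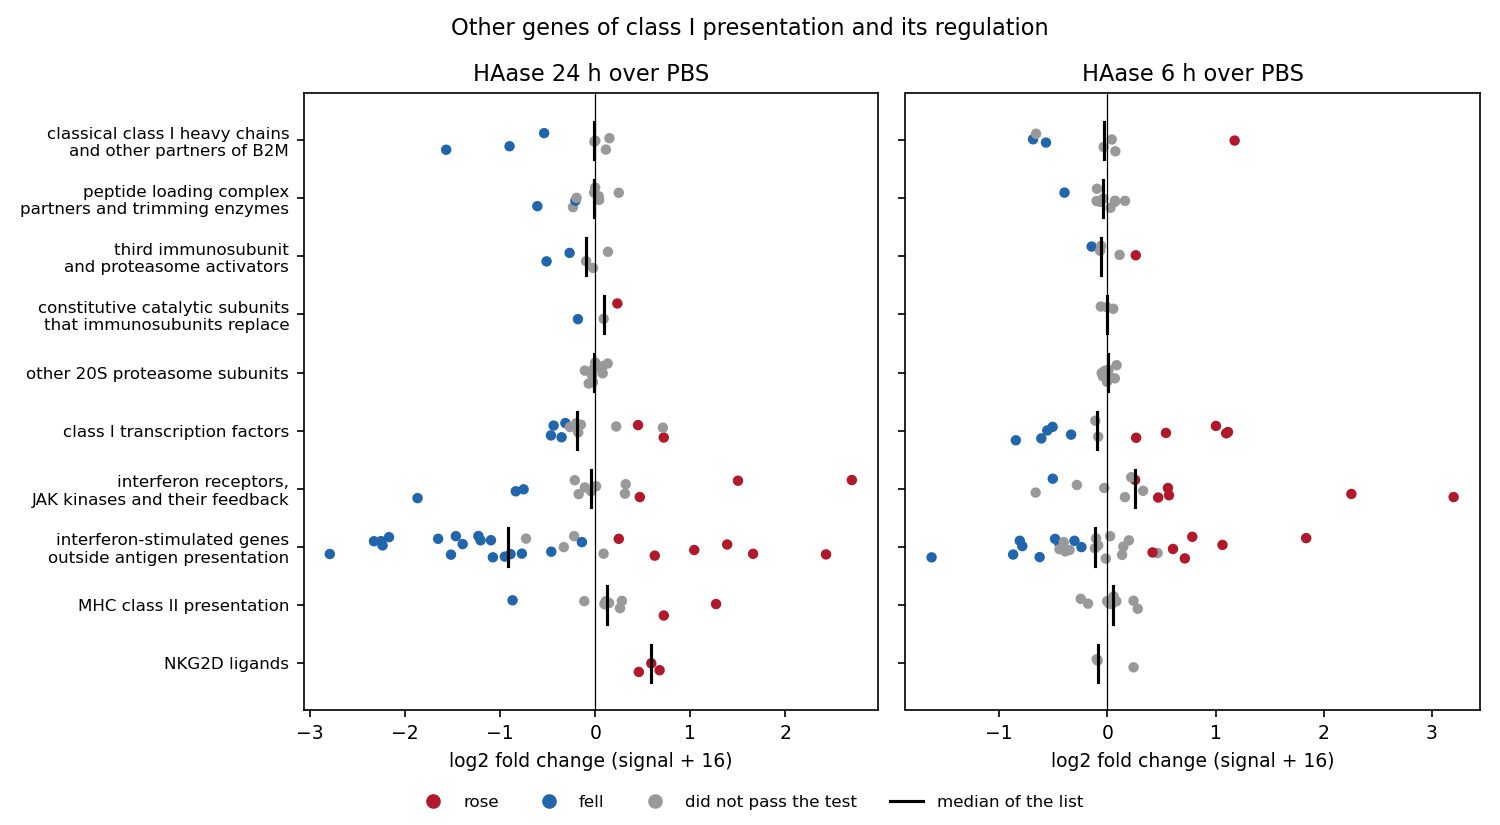
Log2 fold change of each tested gene of 10 lists around class I presentation, HAase 24 h over PBS (left) and HAase 6 h over PBS (right); red rose, blue fell, grey did not pass, and black bars are list medians. The interferon-stimulated genes have a median of -0.92 at 24 h and -0.11 at 6 h, while the other proteasome core subunits lie close to 0 at both times.

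The genes whose log2 signals were most like those of B2M over the 9 arrays were FTL (Pearson r = 0.97), TRMT2A, HSP90AA1, the mitochondrial gene COX2 and TUBA1B (0.94). All 5 were lowest on 24 h replicate 3, like B2M, and all but TRMT2A had mean signals of 32250 to 41800, close to the top of the range. For TAP1 they were TIFA (0.97), CMC2, FGR, MYBL2 and PRPF18 (0.94), and for NLRC5 they were VPS26B (0.91), ERAP1, PIGO, TAF10 and GET3 (0.88). These correlations describe 9 arrays that fall into 3 groups and share their scaling.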

How the data were processed

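Signals of 54675 probe sets on 9 arrays were used, 3 per group. The authors deposited linear signal intensity per probe set. Per the series design text these came from CHP files, and the algorithm that summarised the probes is not given in the sources used here. A trimmed mean of 500.07 on every array shows that the deposited intensity values had been scaled per array.

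Probe sets tied to a single gene symbol by the platform annotation numbered 41091 and were kept, while 1801 with several symbols, 11721 with none and 62 controls were not. Some listed genes are not analysed here. Each gene was represented by its brightest probe set, as log2(signal + 16). Genes with a mean under the 30th percentile (signal 32.2) were left out, and 13842 were tested. The same was done for 28764 single probe sets (signal 24.0). With limma 3.58.1 (R 4.3.3), group means were estimated from all 9 arrays at once, p-values were adjusted by Benjamini-Hochberg over all features of a comparison, and features were called at an adjusted p under 0.05. Where no array of a group exceeded the brightest of 27 Bacillus control probe sets on the same array, at signals of 34.2 to 65.0, the fold change was computed against that level and written "at least".

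Whether replicates came from separate cultures is not stated in the labels. The p-values therefore reflect the spread among these samples, part of which may be technical. The members and the gene lists were chosen with earlier results of these data known. All members were named, and from each list up to 4 genes per comparison by size of change, besides those said to be chosen after their values were seen. The single marker genes of other cell types were named after their values were seen. The 5 genes most like B2M, TAP1 and NLRC5 were named by Pearson correlation. Promoters came from a RefSeq table of GRCh38.p14. The alternatives changed the pseudocount, the filter, the normalization, the choice of probe set, the variance model and the samples in the fit, added a replicate block, or left out each array in turn.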

Additional observations from a re-analysis of the deposited data

Results flagged for a closer look

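PSMB9 and HLA-E differed between 24 h and 6 h of HAase in the direct test, which does not use the PBS level. The arrays include no PBS samples at 6 h. A change in the effect of HAase therefore cannot be told apart from time since the start of treatment. PSMB9 was lower at 24 h by a log2 difference of -0.54 (limma, adjusted p = 0.000796), with all 3 arrays below all 6 h arrays, and HLA-E by -0.38 (adjusted p = 0.00139), also with no overlap. In the fit over all probe sets, the same comparison found HLA-E 200904_at lower by -0.26 (adjusted p = 0.029), HLA-F 204806_x_at by -0.32 (adjusted p = 0.00885) and the dim B2M 232311_at by -0.70 (adjusted p = 0.00757), each with all 24 h arrays below all 6 h arrays. The brightest probe sets of HLA-F and B2M did not pass this test at the gene level, with -0.12 (adjusted p = 0.193) and -0.02 (adjusted p = 0.885), although HLA-F passed with the mean of its probe sets (-0.22, adjusted p = 0.0329) and without 24 h replicate 2 (adjusted p = 0.0479). The call of HLA-E 200904_at was lost in 9 of 15 alternatives, among them the removal of any 24 h array. The causes of these differences were not tested.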

How the results depend on the processing

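The falls of PSMB9, PSMB8 and HLA-E at 24 h, and of PSMB9 and HLA-E from 6 h to 24 h, were called in all 16 alternatives. Of the values of single genes and probe sets under alternatives, 1683 kept their direction and call, 114 lost the call, 7 gained it and 4 changed sign, and of the counts of members 82 stayed within 1.5 times and 11 did not. At 6 h, the 4 genes called became 2 with equal array medians and 2 with the mean of probe sets, and the 5 probe sets called became 2 with no filter on dim genes and 3 with equal array medians. Leaving out 1 array gave 2 to 3 such probe sets. The sign changes were of values that did not pass: HLA-F at 6 h was 0.0158 with equal array medians, TAPBP at 24 h against 6 h was 0.064 with the mean of probe sets, and leaving out arrays moved B2M at 24 h between -0.1125 and 0.0229 against PBS and between -0.0679 and 0.0675 against 6 h, the positive values being those without 24 h replicate 3. Causes were not tested.

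The replicate block left 5 genes called at 24 h, 4 at 6 h and 2 between the times, and 9, 3 and 4 probe sets. Same-numbered arrays did not deviate together (r from -0.05 to 0.04) and 2 of 9 arrays correlated best with their own number, so the numbers were not taken as pairs.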

Other observations

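NKG2D ligands are relatives of class I molecules that need neither B2M nor peptide and activate natural killer cells. Of 8 listed, 3 were tested, and the others on the array were too dim. All 3 tested ligands rose at 24 h of HAase, beside 17.5% of all genes called higher. None passed at 6 h (limma, 0 at an unadjusted p under 0.05), when 15.0% of all genes were called higher and 27.4% lower. MICA averaged a signal of 1645 at 24 h of HAase, 954 at 6 h and 1019 in PBS, and rose by 0.68 ± 0.10 on the log2 scale at 24 h (adjusted p = 0.00132). MICB rose by 0.59 ± 0.13 (adjusted p = 0.00673) and ULBP2 by 0.46 ± 0.11 (adjusted p = 0.0117). MICA (0.77 ± 0.10, adjusted p = 0.00101) and ULBP2 (0.55 ± 0.11, adjusted p = 0.00675) also differed between 24 h and 6 h.

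Of 10 tested genes of class II presentation, 2 rose and 1 fell at 24 h, beside 17.5% of all genes called higher and 22.8% called lower. None passed at 6 h (limma, 1 higher and 1 lower at an unadjusted p under 0.05), beside 15.0% and 27.4% of all genes. CTSS, a protease that trims the invariant chain, rose by 1.27 ± 0.20 at 24 h (adjusted p = 0.00143), with a mean signal of 234 at 24 h and 88.4 in PBS. CD74, the invariant chain itself, rose by 0.72 ± 0.11 (adjusted p = 0.00147, and 0.106 with the mean of its probe sets). HLA-DMA, which helps load class II peptides, fell by 0.87 ± 0.07 (adjusted p = 3.54e-05).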
